A study of Mus musculus with 6 samples.

Results

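Signals of 10 genes of the insulin-like growth factor (IGF) system were compared between pRb-deficient and pRb-expressing osteoblasts. These were the ligand genes Igf1 and Igf2, the receptor gene Igf1r, the receptor adaptor gene Grb10 and the binding protein genes Igfbp2, Igfbp3, Igfbp4, Igfbp5, Igfbp6 and Igfbp7. All probe sets with 1 of these symbols as their only annotated symbol were taken, which gave 29 probe sets for 10 of the 18032 genes matched on the array, from 1 for Igfbp2 and Igfbp6 to 6 for Igfbp4. All 29 had a signal above 32 on at least 1 array and were tested. The cells were MC3T3 osteoblasts, which here are cells of the skull vault, taken from mice at embryonic day 18.5 and immortalized by the 3T3 protocol, and RNA of 3 pRb-deficient cultures, labelled Rb Knockout, and of 3 pRb-expressing cultures, labelled Wild type, was hybridized to 1 Affymetrix array each. No treatment is named for either group. The colony was made by crossing flox19-RB1 mice, kept on a C57BL/6 background, to Col1a1-Cre lines (2.3 and 3.6), in which promoter fragments of a collagen gene of osteoblasts drive the Cre recombinase, and F2 animals were used. The paper writes the genotypes of the cells as Rb+/+ and Rb−/−. Which line gave these cells, and whether the pRb-expressing littermates carried Cre, is not given in the sources used here.

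IGF1 and IGF2 are secreted peptides that act through the IGF1 receptor, a tyrosine kinase whose substrates feed the PI3 kinase and Ras pathways, and they promote growth and survival of many cells. In bone, osteoblasts make both ligands and most of the IGF binding proteins, which hold the ligands in complexes, and proteases that cut the binding proteins set the ligands free. GRB10 binds the activated receptor and the insulin receptor and restrains their signalling, and both Grb10 and Igf2 are imprinted, that is, expressed mainly from the copy inherited from a single parent in many tissues.

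Of the 10 genes, 7 were lower and 2 were higher in pRb-deficient cultures, with 1 probe set per gene (that with the highest mean signal) and an adjusted p under 0.05 from limma. Igf1, Igf2, Igf1r, Grb10, Igfbp4, Igfbp6 and Igfbp7 were lower, Igfbp2 and Igfbp5 were higher, and Igfbp3 did not pass. By the same rule 43.6% of all 16177 genes tested were altered, 24.3% being lower and 19.3% higher, so a change as such was common on these arrays. A change of at least 4-fold was found for Igf1, Grb10, Igfbp5 and Igfbp6 (4 of 10 genes), against 4.82% of all genes. The 10 genes were chosen with earlier results of these data known, so their counts and median are a description. The median log2 fold change, given throughout as pRb-deficient over pRb-expressing, was −1.05 over the 10 genes and −0.09 over all genes tested. Among the 29 probe sets, 18 passed as lower and 3 as higher, while 8 did not pass. Of all 38427 probe sets tested, 35.0% were altered, 18.8% being lower and 16.2% higher. At least 4-fold changes were found in 11 of the 29, against 3.59% of all. The groups did not overlap in 22 of the 29 probe sets (18 of them lower), against 48.0% of all probe sets (26.4% lower), and in the brightest probe set of 8 of the 10 genes (6 of them lower), against 54.0% of all genes (30.7% lower). An exact permutation test of 3 against 3 cultures cannot give a two-sided p below 0.10, so single probe sets are judged by limma, which shares the spread over all probe sets.

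**Figure D1:**
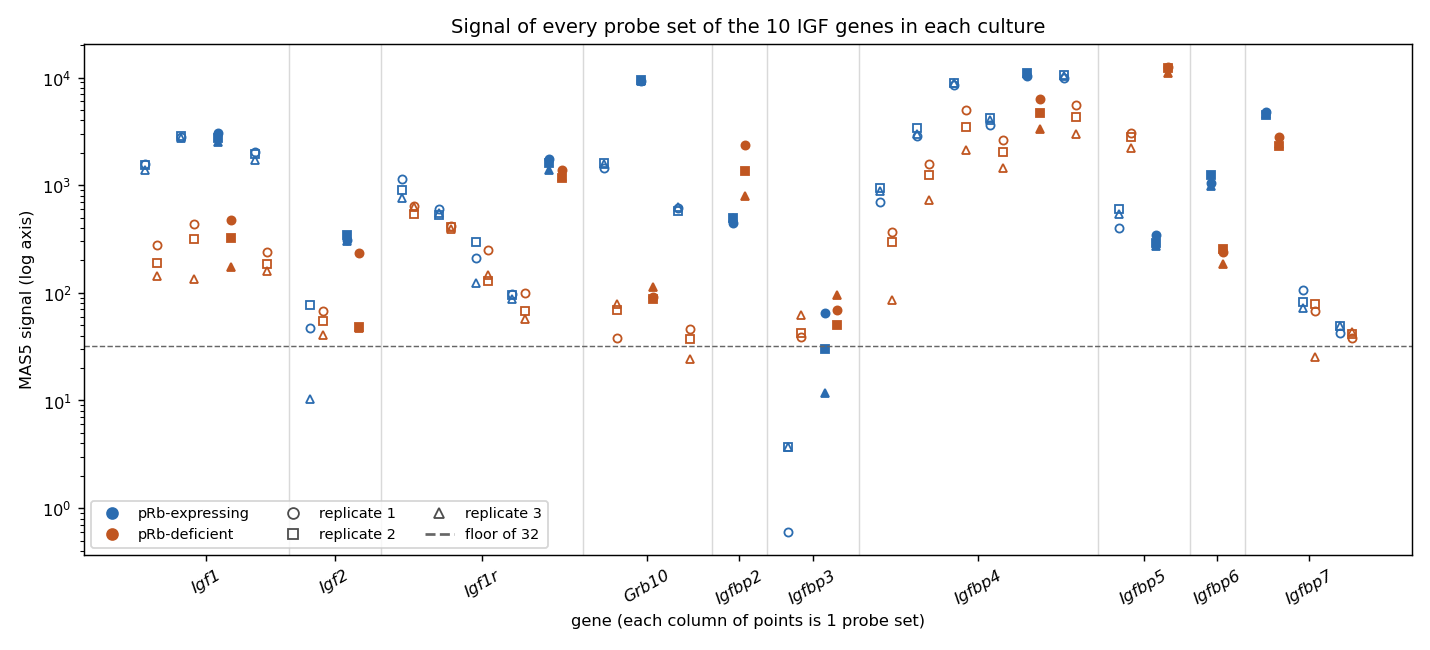
MAS5 signal (log axis) of every probe set of the 10 genes in each of the 6 cultures, 1 column of points per probe set, with pRb-expressing cultures in blue, pRb-deficient cultures in orange, a symbol per replicate, filled symbols for the brightest probe set of a gene and a dashed line at the floor of 32. All pRb-deficient points lie below the pRb-expressing ones in the 4 probe sets of Igf1, the 3 of Grb10 and the 6 of Igfbp4, and above them in both probe sets of Igfbp5.

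A few facts of the whole series bear on these values. Log2 signals correlated at 0.974 to 0.985 between arrays of the same group and at 0.912 to 0.917 between groups. These correlations run across probe sets, and probe sets are no independent replicates. Rb1, the targeted gene, fell from a mean signal of 1116 ± 9.17 to 131 ± 10.4 (SD, n = 3 each). Whether its probes fall within the deleted part of the gene was not examined. Genes that mark sex differed too, with a mean Xist signal of 168 against 10965 in pRb-deficient cultures and 3 Y-linked genes being at or below 32 on all pRb-deficient arrays, so sex and line of origin cannot be told apart from pRb status. The cultures are called biological replicates, but nothing says that they came from separate animals or lines, so the p-values capture no more than the spread of these cultures, and that may be technical. Of 8 measured osteoblast markers, 7 were lower and 1 was higher in pRb-deficient cultures, where Ibsp and Dmp1, genes of the mineralizing matrix, were at or below 32 on all arrays and Sp7, an osteoblast transcription factor gene, fell from 1833 ± 255 to 124 ± 93.5 (SD, n = 3 each). The summed signal of these markers ranged from 62197.5 to 72138 among pRb-expressing cultures and from 35644 to 47919 in the pRb-deficient group. It came mainly from Sparc, Col1a1 and Col1a2, which were 1.29-fold, 1.74-fold and 1.70-fold lower. Runx2 and Spp1, also on the osteoblast list, had no matched probe set. Of 6 endothelial markers, 5 stayed at or below 100 on all arrays. The summed signal of 6 mesothelial markers ranged from 167 to 179 among pRb-expressing and from 2712 to 3375 among pRb-deficient cultures, and came mainly from Msln and Bnc1, while Wt1 and Upk3b, which define that cell type, stayed at or below 32 on all pRb-deficient arrays. Single markers of other cell types moved as well. The smooth muscle gene Cnn1 rose from 12.1 ± 3.50 to 2495 ± 363 (SD, n = 3 each, at least 77.4-fold) and Tagln rose 1.97-fold. On the same list Acta2, the brightest, Des and Rgs5 did not pass, and Myh11 stayed at or below 32 on all arrays. The myeloid gene Lyz2 fell from 1612 ± 79.7 to 113 ± 45.2 and Cd14 rose from 268 ± 41.0 to 984 ± 162 (SD, n = 3 each). Cd68 rose 1.81-fold. Ptprc, Itgam and Csf1r, also on the hematopoietic list, did not pass, and Ptprc and Itgam stayed below 100 on all arrays. The chondrocyte gene Acan rose from 129 ± 28.8 to 634 ± 228 while Col2a1 went from 1542 ± 201 to 488.5 ± 226 (SD, n = 3 each). The part of such cell type differences in the IGF values was not tested, and in these bulk samples fewer cells of a type and less RNA per cell cannot be told apart.

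Igf1 encodes the ligand that the receptor binds most tightly, and its signal in pRb-deficient cultures was 10.8% of that in pRb-expressing ones. In the brightest of its 4 probe sets the pRb-expressing cultures gave 3073, 2734 and 2512 (replicates 1 to 3) and the pRb-deficient cultures 472, 323 and 174. The groups did not overlap in any of the 4 probe sets, and in each of them pRb-deficient replicate 1 was the highest of its group and replicate 3 the lowest. The log2 fold change of the brightest probe set was −3.21 (SE, the standard error, 0.33, limma adjusted p = 0.000289), a 9.26-fold fall, and the 4 probe sets fell between 7.57-fold and 10.6-fold. Igf1 ranked 99 from the lowest log2 fold change among the 16177 genes tested.

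Igf2, the other ligand gene, is active mainly in fetal tissues. Its brighter probe set gave 309, 347 and 304 in pRb-expressing cultures and 235, 47.8 and 47.4 in pRb-deficient cultures. The pRb-deficient cultures thus differed among themselves, replicate 1 lying between the pRb-expressing values and those of the other two, although the groups did not overlap. The log2 fold change was −1.98 with an SE of 0.60 (limma adjusted p = 0.0344). The signals of pRb-deficient replicates 2 and 3 lay below 100. With a floor of 100 the log2 fold change was −1.26 (limma adjusted p = 0.0183). The adjusted p was 0.125, 0.151 and 0.117 without pRb-expressing replicates 1, 2 and 3, and 0.145 and 0.129 without pRb-deficient replicates 2 and 3, whereas without pRb-deficient replicate 1 the log2 fold change was −2.74 (adjusted p = 0.000404). The other probe set of Igf2 stayed between 10.3 and 77.5 on all arrays and did not pass.

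Igf1r, the gene of the receptor itself, was lower by less than any other of the 10 genes that passed. Its brightest probe set gave 1762, 1604 and 1375 in pRb-expressing and 1386, 1157 and 1187 in pRb-deficient cultures. The highest pRb-deficient value exceeded the lowest pRb-expressing value, so the groups overlapped. The log2 fold change was −0.34 (SE 0.12, limma adjusted p = 0.0497 over genes and 0.0595 over probe sets). Both further probe sets that passed were separated between groups, with log2 fold changes of −0.62 and −0.46 (adjusted p = 0.0196 and 0.00943), and the remaining 2, the dimmest, gave −0.23 and −0.37 and did not pass. The call for the brightest probe set was lost without pRb-expressing replicate 1 or 2 (adjusted p = 0.168 and 0.163) and without pRb-deficient replicate 2 or 3 (0.171 and 0.138). Igf1r lies on chromosome 7, whose expressed genes had a median log2 fold change of −0.33, and with each chromosome's median removed its log2 fold change was −0.01 (adjusted p = 0.947).

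Grb10 showed the lowest log2 fold change of all 16177 genes tested, although falls to the floor of 32 are lower bounds and have no order against it. Its brightest probe set gave 9232, 9584 and 9325 in pRb-expressing cultures and 90.5, 87.5 and 114 in pRb-deficient cultures. The pRb-deficient values lay around a signal of 100, at or below which 46.1% to 48.5% of the probe sets on each array were found. The log2 fold change was −6.60 (SE 0.11, limma adjusted p = 6.63e-07), a 97.0-fold fall. The other probe sets fell from 1538 ± 87.7 to 62.2 ± 21.3 (SD, n = 3 each), 25.9-fold, and from 604 ± 25.5 to 35.7 ± 10.8 (SD, n = 3 each), at least 16.0-fold, since 1 pRb-deficient array was below the floor. The fall of Grb10 passed under every setting tried except the rank statistic, which called no probe set, with log2 fold changes from −6.72 to −5.10.

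The binding proteins moved in both directions. Igfbp5, which encodes the binding protein most abundant in bone matrix, rose in both of its probe sets, but by different amounts. The brighter one, whose name ending (_s_at) marks probes shared between transcripts, gave 346, 292 and 275 in pRb-expressing and 12467, 12229 and 11096 in pRb-deficient cultures. The other gave 401, 596 and 541 and then 3032, 2792 and 2205. The groups lay far apart in both, with log2 fold changes of 5.30 (SE 0.10, limma adjusted p = 6.63e-07), a 39.35-fold rise, and of 2.39 (SE 0.18, limma adjusted p = 9.85e-05), a 5.25-fold rise. Igfbp5 ranked 28 from the highest log2 fold change among the 16177 genes tested.

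Igfbp2, whose product prefers IGF2 over IGF1, rose less and unevenly. Its single probe set gave 441, 496 and 501 in pRb-expressing and 2344, 1351 and 800.4 in pRb-deficient cultures. All pRb-deficient values were above all pRb-expressing ones, but the highest was 2.93 times the lowest. The log2 fold change was 1.51 (SE 0.35, limma adjusted p = 0.0112). With 1 array left out the adjusted p was 0.0703, 0.0714 and 0.0569 without pRb-expressing replicates 1, 2 and 3 and 0.0601 without pRb-deficient replicate 2, and the call was lost each time.

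Igfbp4, the gene of a binding protein that inhibits IGF action, fell in all 6 of its probe sets. The brightest gave 10313, 11019 and 10721 in pRb-expressing and 6319, 4704 and 3292 in pRb-deficient cultures. The groups did not overlap in any of the 6, and the order of the pRb-deficient cultures was that of Igf1 and Igfbp2, replicate 1 being the highest and replicate 3 the lowest each time. The log2 fold change was −1.21 (SE 0.22, limma adjusted p = 0.00347), and the 6 probe sets fell between 2.01-fold and 4.005-fold. Some of these probe sets have names ending in _x_at or _s_at and may share probes, so they are not independent measurements of the gene.

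Igfbp6, whose product binds IGF2 with a marked preference, fell from 1092 ± 137 to 227 ± 36.9 (SD, n = 3 each). Its single probe set gave 1049, 1246 and 981 in pRb-expressing and 240.0, 256 and 185 in pRb-deficient cultures, with a log2 fold change of −2.27 (SE 0.16, limma adjusted p = 5.04e-05), a 4.83-fold fall. Igfbp7, which encodes a relative of the IGF binding proteins with low affinity for IGFs, fell to 54.3% of its level. Its brightest probe set gave 4769.6, 4525 and 4557 and then 2789, 2334 and 2416, a log2 fold change of −0.88 (SE 0.08, limma adjusted p = 0.000186). Both dim probe sets of Igfbp7 overlapped between groups and did not pass.

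Igfbp3, the main carrier of IGFs in serum, was near background in all cultures. Its brighter probe set gave 64.8, 29.8 and 11.7 in pRb-expressing and 69.4, 50.2 and 94.7 in pRb-deficient cultures, which overlap, with a log2 fold change of 0.77 (SE 0.35, limma adjusted p = 0.126). The other gave 0.60, 3.7 and 3.7 and then 39.1, 42.1 and 62.4. These values did not overlap, but all pRb-expressing ones were below the floor, so the difference was at least 1.46-fold, and it did not pass (adjusted p = 0.0663 over probe sets). Igfbp3 passed without pRb-expressing replicate 1 (log2 fold change 1.11, adjusted p = 0.0416) and with each chromosome's median removed (1.29, adjusted p = 0.0214).

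**Figure D2:**
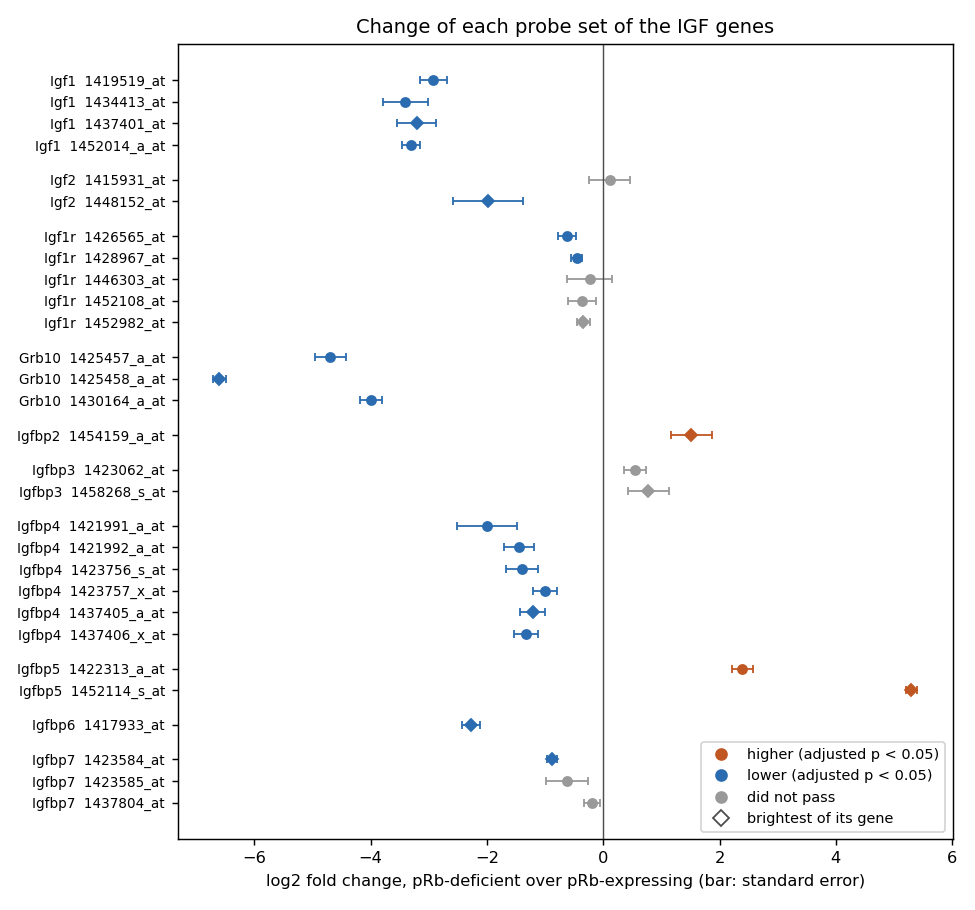
Log2 fold change of each of the 29 probe sets (x axis, pRb-deficient over pRb-expressing, bars giving the standard error from limma), coloured by whether it passed an adjusted p of 0.05 over all probe sets, with a diamond for the brightest probe set of a gene. The Grb10 probe sets lie between −6.60 and −4.00 and those of Igf1 between −3.41 and −2.92, whereas Igfbp5 lies at 2.39 and 5.30. The brightest probe set of Igf1r is grey here (adjusted p = 0.0595 over probe sets) although it passed when adjusted over genes.

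The pRb-deficient cultures differed more among themselves than the pRb-expressing ones did in several of these genes. Over 10032 genes with every signal above 100, the median SD of the log2 signal was 0.095 among pRb-expressing and 0.15 among pRb-deficient cultures, and the 90th percentile of the latter was 0.36. For the brightest probe sets of Igf1, Igfbp2 and Igfbp4 the SD among pRb-deficient cultures was 0.72, 0.78 and 0.47, and that among pRb-expressing cultures 0.15, 0.10 and 0.05. For Igfbp5 it was 0.09 among pRb-deficient cultures, and for Igfbp7 0.14. Replicate 1 was the highest and replicate 3 the lowest pRb-deficient culture in all 11 probe sets of Igf1, Igfbp2 and Igfbp4 and in 18 of the 29 probe sets of the 10 genes. In the brightest probe set of each gene it was seen for Igf1, Igf2, Igfbp2, Igfbp4 and Igfbp5 and for no other of the 10 genes. Counted by the brightest probe set, this order was found for 26.8% of all genes tested and for 30.1% of those with every signal above 100. The probe sets of 1 gene measure the same RNA, so these counts rest on few genes. For Igf2 the SD was 1.33, with replicate 1 apart from replicates 2 and 3. Those gave 47.8 and 47.4, so their order is not resolved.

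**Figure D3:**
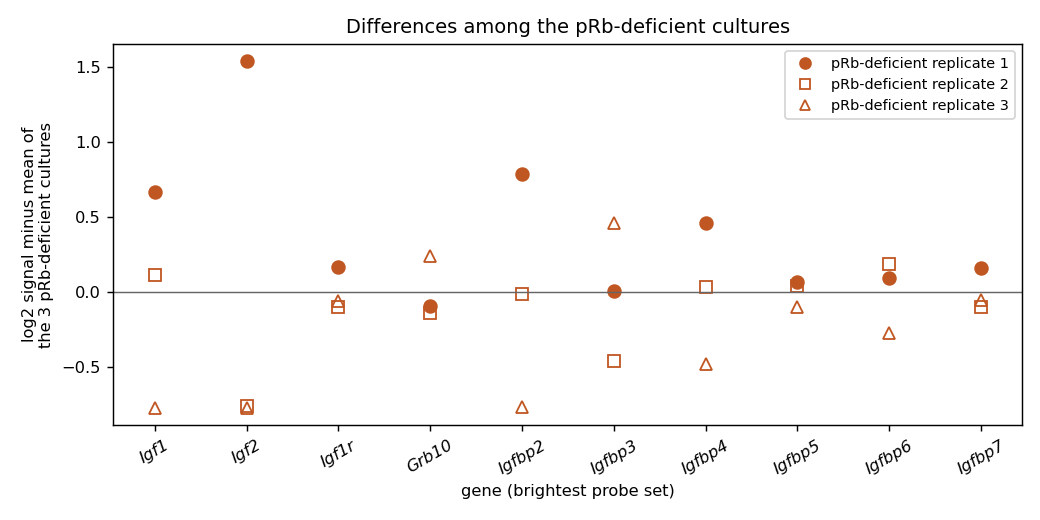
Log2 signal of each pRb-deficient culture minus the mean of the 3 (y axis), for the brightest probe set of each gene, with a symbol per replicate. Replicate 1 is highest for Igf1 (0.66), Igf2 (1.53), Igfbp2 (0.78) and Igfbp4 (0.46). Replicate 3 is lowest for these genes, though for Igf2 it is nearly level with replicate 2 (−0.77 and −0.76). The points of Igfbp5 lie between −0.10 and 0.07.

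Whole chromosomes differed between the groups in their median log2 fold change, so each gene was set beside its surroundings in the gene order of RefSeq for GRCm38.p6. Only genes whose mean signal reached 200 were used, and the nearest 5 on each side were taken as neighbours, a choice made after the data had been seen. Igfbp2 and Igfbp5 are adjacent on chromosome 1, with 0 annotated genes between them. The median log2 fold change of chromosome 1 was −0.50, and the 10 neighbours of Igfbp5 had a median of −0.78, with 8 below 0 and Igfbp2 the highest at 1.51. Both binding protein genes were thus higher in a stretch where most measured genes had lower signals. Grb10, on chromosome 11, had the lowest value of 798 genes there, where the chromosome median was −0.52, and its neighbours ranged from −4.25 to 4.02 with a median of −1.05 and 9 of 10 below 0. Igfbp6 went against its chromosome, with −2.27 where chromosome 15 had a median of 0.35 and its 10 neighbours a median of 0.71. Igf1 gave −3.21 beside medians of 0.13 for chromosome 10 and −0.07 for its neighbours. With each chromosome's median removed, the log2 fold changes of Igf1, Grb10, Igfbp2, Igfbp4, Igfbp5, Igfbp6 and Igfbp7 kept their sign and passed. That of Igfbp4 shrank from −1.21 to −0.69 (limma adjusted p = 0.0279) and that of Grb10 from −6.60 to −6.08. Those of Igf1, Igfbp2, Igfbp5, Igfbp6 and Igfbp7 grew in size. Igf2 no longer passed (−1.65, adjusted p = 0.0539), and neither did Igf1r.

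**Figure D4:**
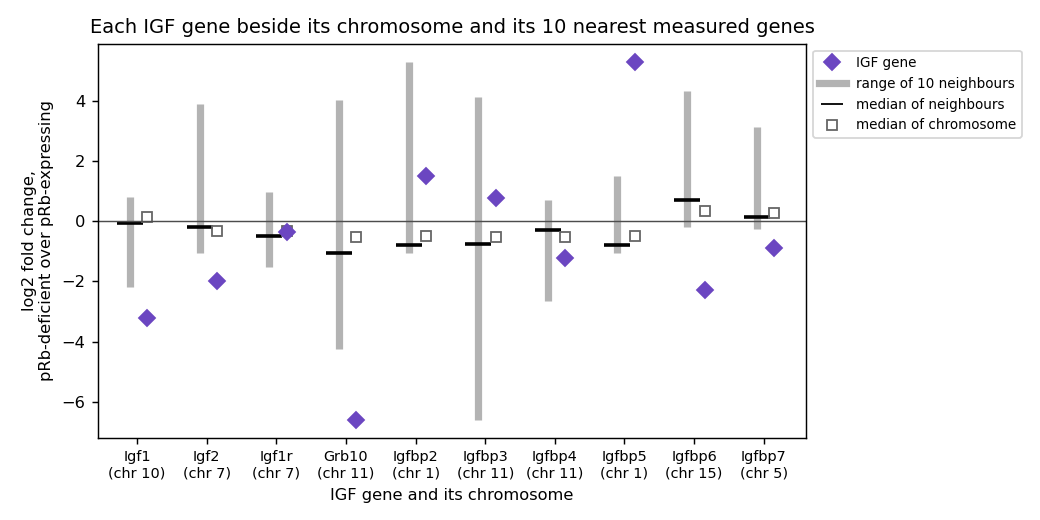
Log2 fold change (y axis, pRb-deficient over pRb-expressing) of the brightest probe set of each gene (diamond), the range (grey bar) and median (black line) of its 10 nearest genes whose mean signal reached 200, and the median of its chromosome (square). Igfbp5 lies above, and Igf1, Igf2, Grb10, Igfbp6 and Igfbp7 lie below, the range of their neighbours. Members count among each other's neighbours, so the bar of Igfbp2 reaches up to Igfbp5 and that of Igfbp3 down to Grb10.

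Sequences upstream of the genes with the largest values were examined for letters known from E2F sites, since pRb acts on transcription by binding E2F factors. RefSeq start sites on GRCm38.p6 gave 15 windows for the 10 genes, and the 250 bases before each start were searched on both strands for the E2F site (TTTCCCGC, TTTGGCGC, TTTCGCGC or TTTGCCGC), the GC box (GGGCGG), which Sp1 family factors bind, and the TATA box (TATAAA). The E2F letters were in 0 of the 15 windows, against 1.86% of 32851 windows of all genes, and their absence says only that these letters are not in these windows. The GC box was in 6 windows of 5 genes (Igf2, Igf1r, Grb10, Igfbp2 and Igfbp7), against 32.7% of all, and the TATA box in those of Igfbp4 and Igfbp6, against 12.4%. Shown are the windows, 1 per gene, of Grb10 and Igf1, which had the largest falls of the 10 genes, and of the adjacent pair Igfbp2 and Igfbp5, which rose. They are written 5′ to 3′ on the strand of the gene, with GC boxes on either strand in capitals. The positions are chr11:12037421-12037670, minus strand for Grb10, chr10:87860861-87861110, plus strand for Igf1, chr1:72824230-72824479, plus strand for Igfbp2, chr1:72874866-72875115, minus strand for Igfbp5, all on GRCm38.p6.
Grb10: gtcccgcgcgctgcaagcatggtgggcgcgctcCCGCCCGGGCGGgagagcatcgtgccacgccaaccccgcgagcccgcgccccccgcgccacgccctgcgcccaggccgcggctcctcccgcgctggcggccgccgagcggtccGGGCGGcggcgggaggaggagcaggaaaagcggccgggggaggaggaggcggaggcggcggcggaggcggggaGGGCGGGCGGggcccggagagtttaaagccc
Igf1: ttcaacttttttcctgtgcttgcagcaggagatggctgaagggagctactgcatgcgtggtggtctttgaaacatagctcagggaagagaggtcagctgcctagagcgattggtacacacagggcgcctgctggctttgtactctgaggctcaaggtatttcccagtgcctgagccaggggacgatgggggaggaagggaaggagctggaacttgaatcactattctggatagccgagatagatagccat
Igfbp2: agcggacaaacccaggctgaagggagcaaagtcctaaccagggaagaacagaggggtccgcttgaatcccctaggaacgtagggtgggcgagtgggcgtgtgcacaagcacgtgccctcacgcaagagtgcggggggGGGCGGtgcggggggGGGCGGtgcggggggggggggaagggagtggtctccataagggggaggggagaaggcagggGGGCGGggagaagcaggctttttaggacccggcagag
Igfbp5: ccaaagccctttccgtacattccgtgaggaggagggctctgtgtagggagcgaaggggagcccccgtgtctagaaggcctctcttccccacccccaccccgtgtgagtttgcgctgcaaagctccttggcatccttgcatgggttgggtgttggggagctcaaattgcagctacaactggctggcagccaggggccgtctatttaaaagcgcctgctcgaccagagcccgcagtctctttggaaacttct
The Grb10 window held 5 GC boxes, some overlapping, and the Igfbp2 window 3, while those of Igf1 and Igfbp5 held 0. Grb10 and Igfbp2 each have 2 windows, of which the one listed first is shown, and the other window of each held no GC box. G and C made up 81.2% of the Grb10 window, 67.2% of that of Igfbp2, 58.8% of that of Igfbp5 and 52.8% of that of Igf1, against a median of 52.4% over all windows. No binding was measured in these cells, so a match here is a description of the sequence.

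The other genes of the pathway were taken from 7 lists by role, with 59 of 63 genes matched to a probe set and 57 tested. Of these, 20 were higher, 16 were lower by limma and 21 were not called, a share of 63.2% called against 43.6% of all genes, and their median log2 fold change was 0.07 against −0.09. The number of lower genes depended on single arrays, being 10, 10 and 9 without pRb-expressing replicates 1, 2 and 3 and 9 without pRb-deficient replicate 2, and it was 10 with each chromosome's median removed. The lists were chosen with earlier results of these data known, so the counts are a description.

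Among the proteases that cut the binding proteins, and their inhibitors, 6 of 7 genes were higher and 1 was lower in pRb-deficient cultures, against 19.3% of all genes higher and 24.3% lower. Pappa encodes PAPP-A, a metalloprotease that cuts IGFBP4 and IGFBP5, and the brightest of its 3 probe sets, all of them higher, gave 236, 164 and 199.8 against 2319, 1694 and 1523, or 3.20 as log2 fold change. The related Pappa2, whose product cuts IGFBP5 and IGFBP3, went the other way, from 13163, 13069 and 11209.5 to 2228, 1616 and 781 (log2 fold change −3.14). The genes of these related proteases thus moved in opposite directions. Adam9 and Adam12, which encode membrane metalloproteases that can cut binding proteins, rose from 3139 ± 56.1 to 6729 ± 389 and from 378 ± 26.7 to 913 ± 68.6 (SD, n = 3 each). The remaining members of the list, named after their values were seen, were Stc1 and Stc2, whose products inhibit PAPP-A, and the serine protease gene Htra1, with log2 fold changes of 1.73 (1 of 2 probe sets passing), 0.98 and 0.71.

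Of the receptors other than Igf1r, Lrp1, which encodes a large endocytic receptor reported to bind IGFBP3, rose from 2929 ± 309.9 to 5917 ± 764 (SD, n = 3 each), and Tmem219, which encodes another IGFBP3 receptor, fell from 313 ± 20.3 to 201 ± 35.8 in 1 of 3 probe sets (SD, n = 3 each, limma adjusted p = 0.0168). Igf2r, which clears IGF2 and is named after its values were seen, gave 2149 ± 175 and 2262 ± 240 (SD, n = 3 each), which did not pass (log2 fold change 0.07, SE 0.10), and neither the insulin receptor gene Insr nor Insrr passed. Both measured genes for proteins that bind Igf2 mRNA were lower. Igf2bp3 fell from 1265 ± 143 to 523 ± 71.8 and Igf2bp1 from 691 ± 51.4 to 354.5 ± 14.7 (SD, n = 3 each), with 6 of 6 and 3 of 4 probe sets passing. Kazald1, which encodes a secreted bone protein related to the IGF binding proteins, fell from 2153 ± 158 to 137 ± 7.90 (SD, n = 3 each). It was the only 1 called of 3 genes tested in a list of 4, against 43.6% of all genes. The other 3 genes of that list stayed at or below 100 on all arrays.

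Inside the cell, 7 of 14 adaptor genes were called (5 higher and 2 lower), a share close to the 43.6% of all genes. Irs1, the docking protein that the activated receptor phosphorylates, fell from 10542 ± 469.7 to 5719.6 ± 940.0 (SD, n = 3 each), a log2 fold change of −0.89, while the Ras activator gene Sos2 (1.08), the phosphatase gene Ptpn11 (0.82, 1 of 3 probe sets passing) and the adaptor gene Shc1 (0.55) had higher values on the log2 scale. In the PI3 kinase, Akt and mTOR arm 8 of 18 genes were higher and 5 were lower, against 19.3% and 24.3% of all genes. Pik3cb, a catalytic subunit of PI3 kinase, rose from 64.3 ± 9.35 to 489.5 ± 119.6 (SD, n = 3 each). Its pRb-expressing signals all lay below 100, and its log2 fold change of 2.91 was 2.26 with a floor of 100. Pik3ca, Mtor and Rictor rose by 0.86, 1.21 and 1.66 on the log2 scale, with 5 of 5 probe sets of Rictor passing but 4 of 6 of Pik3ca and 1 of 2 tested ones of Mtor. The 5 lower genes, named after their values were seen, were Pik3r1 (−1.22), Akt2 (−0.51), Gsk3b (−0.48), Rptor (−0.34) and Pik3r3 (−0.28). Of Pik3r1 4 of 4 probe sets were lower, of Gsk3b 1 of 6, and of Akt2 2 were lower and 1 was higher. Of 8 inhibitors of the pathway, 4 were called, all lower, again a share close to the 43.6% of all genes called (24.3% lower). Socs3, a feedback inhibitor of cytokine and insulin signalling, had a log2 fold change of −1.06 in its brightest probe set, and its 3 probe sets were all lower. For Tsc1, Inppl1 and Socs2 it was −0.57, −0.45 and −0.59 (limma adjusted p = 0.0216, 0.0358 and 0.0440). Of the probe sets tested, 1 of 3 of Tsc1 and 2 of 5 of Socs2 were lower. The brightest of Socs2 did not pass when adjusted over probe sets (limma adjusted p = 0.0528). The calls of Tsc1, Inppl1, Socs2 and Tmem219 were lost without any of the pRb-expressing replicates and without pRb-deficient replicate 2 (adjusted p from 0.0520 to 0.158). Those of Tsc1 and Socs2 were also lost without pRb-deficient replicate 3 (0.0607 and 0.0678). With each chromosome's median removed, Tmem219 (−0.32, adjusted p = 0.141), Tsc1 (−0.28, 0.197) and Inppl1 (−0.12, 0.534) no longer passed. Inppl1 and Socs2 were also lost with no filter (0.0876 and 0.101) or no intensity trend (0.0681 and 0.065), Inppl1 with median centring (0.0921), and Tsc1 and Socs2 with the mean of their probe sets (0.187 and 0.0655).

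**Figure D5:**
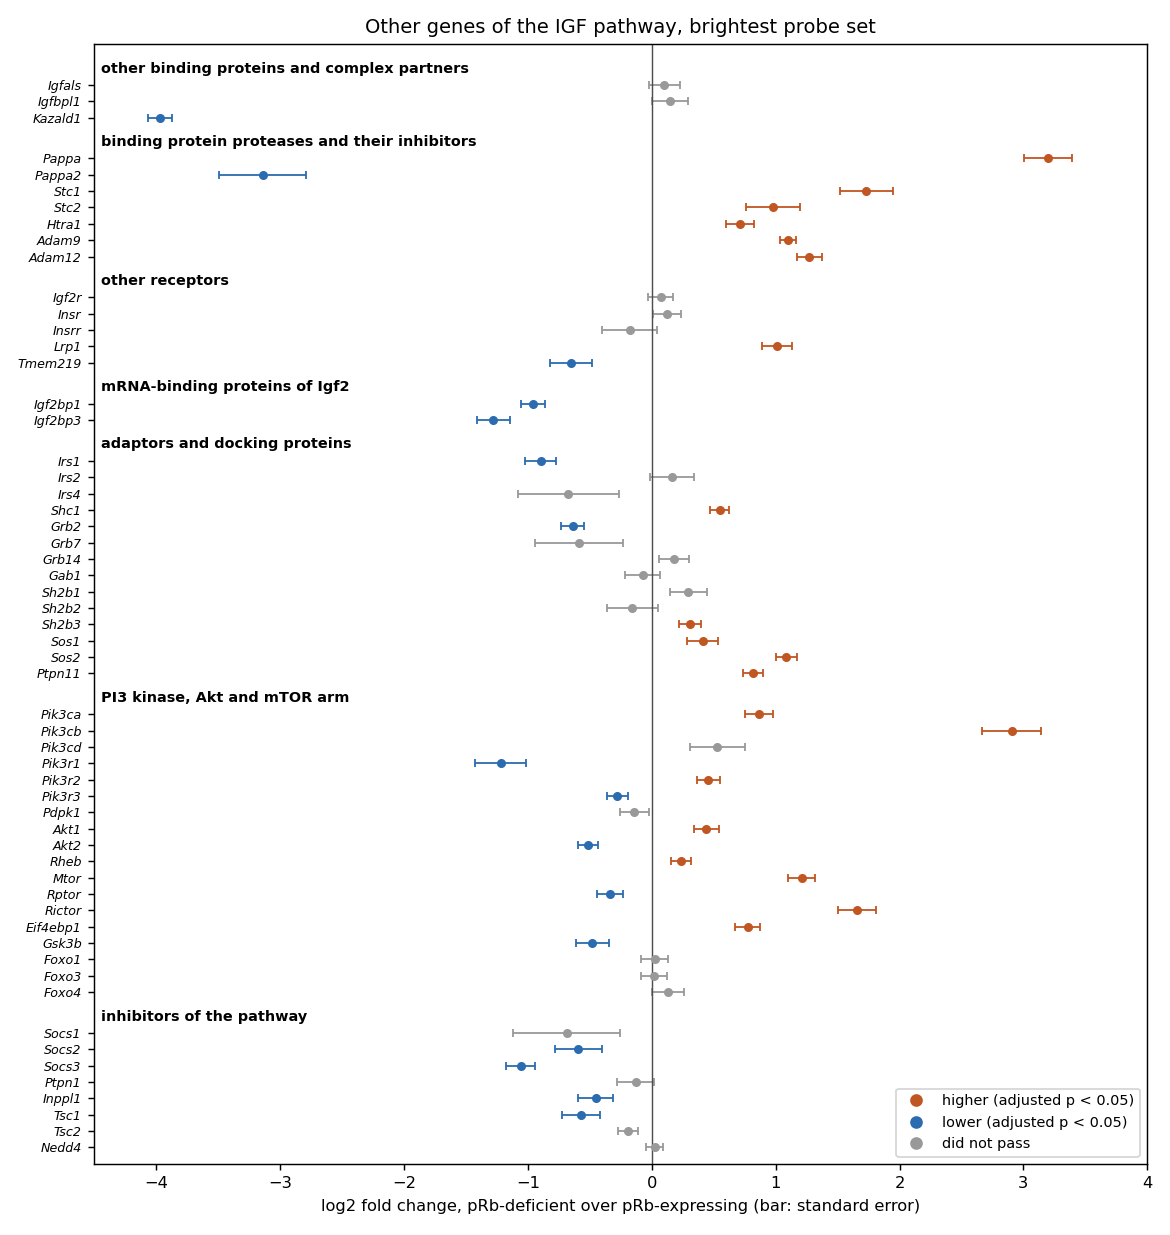
Log2 fold change (x axis, pRb-deficient over pRb-expressing, bars giving the standard error from limma) of the brightest probe set of the 57 pathway genes tested, in 7 lists by role and coloured by whether they passed an adjusted p of 0.05. Pappa (3.20) and Pappa2 (−3.14) lie far apart on opposite sides of 0, only Kazald1 (−3.97) being lower, and 6 of the 7 protease and inhibitor genes lie above 0.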

How the data were processed

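Biotin-labeled RNA from 3 pRb-expressing and 3 pRb-deficient MC3T3 cultures was hybridized by the authors to Affymetrix mouse genome arrays, 1 per culture. The deposited intensities are MAS5 signals on a linear scale, which the authors scaled on each array to a trimmed mean of 500 (Affymetrix Expression Console 1.1 and MAS5 per the submitters' processing notes). No detection calls come with them, and precision is limited by the number of arrays.

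Control probe sets (64) were left out. Signals were floored at 32 and log2 transformed, and the 38427 probe sets above the floor on at least 1 array were fitted with limma 3.58.1 (eBayes with intensity trend) in R 4.3.3, with group as the only term. Benjamini-Hochberg adjustment of the p-values ran over 38427 probe sets, or over 16177 genes for 1 probe set per gene, that with the highest mean signal. The steps were tested on simulated data. Where an array of the lower group was at or below the floor, a fold is a lower bound ("at least"). Names come from the array's annotation table, and symbols, gene order and promoter sequences from RefSeq (GRCm38.p6), the study's own genome build being not given in the sources used here.

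The members and lists were chosen with earlier results of these data known. The text names all 10 members, up to 4 genes of each of 7 pathway lists with the lowest adjusted p among those that passed, and the genes said to be named later. Other settings were a floor of 100, a pseudocount of 32, a minimum mean signal of 100, no filter, quantile normalization, median centring, removal of chromosome medians, no trend, a replicate block, a rank statistic as the study's methods name, the mean of a gene's probe sets, and leaving out each array. Limma is the main test, and the rank statistic, rebuilt here on all probe sets tested, is an alternative to it. Genes of 7 marker lists (osteoblast, chondrocyte, adipocyte, smooth muscle and pericyte, endothelial, hematopoietic, mesothelial) were read beside the members: of those tested, 7 osteoblast, 2 chondrocyte, 1 adipocyte and 1 hematopoietic marker were lower, 1 osteoblast, 1 chondrocyte, 2 smooth muscle, 2 hematopoietic and 3 mesothelial markers were higher, and 0 of 5 endothelial ones passed limma (all 5 endothelial ones with an unadjusted p above 0.05).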

Additional observations from a re-analysis of the deposited data

How the results depend on the processing

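The calls of Igf1, Grb10, Igfbp4, Igfbp5, Igfbp6 and Igfbp7 were kept, with the same sign, under every limma setting tried, and no member changed sign. Over all members, 135 of the values under other settings kept direction and side of the threshold, 21 lost the call (all of Igf2, Igf1r or Igfbp2) and 2 gained it (Igfbp3). Igf2 also lost it with no filter (adjusted p = 0.0988) and with the mean of its probe sets (log2 fold change −0.93, adjusted p = 0.121), and Igf1r with no filter, median centring, no trend or the mean of its probe sets (adjusted p from 0.0621 to 0.0962). Without 1 array, the number of members called higher was 1 to 2 and lower 5 to 7, that of their probe sets 2 to 4 and 13 to 17, and that of pathway genes 16 to 20 and 9 to 15. With chromosome medians removed, 5 member probe sets were higher and 10 pathway genes lower. The rank statistic called 0 members, probe sets or pathway genes higher and 0 lower, since complete separation of the groups, found for 18447 probe sets, had a permutation false discovery rate of 12.99% as computed here, and 0 had an unadjusted exact p under 0.05, the smallest possible being 0.10. Igf2r, which did not pass, gave −0.01 without pRb-deficient replicate 1, ranged up to 0.14 without 1 array, and passed with chromosome medians removed (0.32, adjusted p = 0.0389).

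Replicate numbers were treated as names, not pairs, because deviations of same-numbered arrays from their group means correlated at only 0.02, −0.03 and 0.06, and not every array correlated best with its own number. With the replicate block, 2 member genes were called higher and 7 lower, and 18 pathway genes higher and 15 lower. It thus changed no call of a member gene, while 19 member probe sets were lower against 18 in the main fit. Signals near the floor, such as those of Igfbp3 and the dim probe sets of Igf2 and Igfbp7, cannot be ranked. With a floor or a minimum mean signal of 100, Igfbp3 was not tested. Without detection calls a low signal cannot be told from none.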
